A study of Mus musculus with 6 samples.

Results

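The proteasome is the barrel-shaped protease that degrades proteins tagged with ubiquitin. Its core particle stacks rings of alpha subunits, which form the gate, on rings of beta subunits, which carry the catalytic sites. A regulatory particle caps the barrel. Its base holds a ring of ATPases that unfolds the substrate and pulls it in, and its lid removes the ubiquitin chain. Activator proteins can open the barrel in place of that cap, and interferon exchanges the constitutive catalytic subunits for those of the immunoproteasome, which is known for making peptides for class I antigen presentation.

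The genes described here are the rows of the deposited mouse count table whose symbol begins with Psma, Psmb, Psmc, Psmd, Psme, Psmf or Psmg followed by a number, without the immunoproteasome genes Psmb8, Psmb9 and Psmb10. They are 47 of 14943 symbols. By textbook role, 15 encode core subunits (8 alpha and 7 beta), 9 base subunits (6 ATPases and 3 others), 8 lid subunits and 4 activators. A further 4 encode chaperones of core assembly, 3 encode chaperones of base assembly and 1 encodes an inhibitor. The symbol rule also takes in Psme2b, a copy of the activator gene Psme2, and Psmc3ip and Psme3ip1, which are named for partners of proteasome proteins and encode no subunit. All 47 passed the filter on low counts. Psmb11, the beta subunit of the thymus, was not analysed here. Psmg4 and Psma8 had few reads, and Psme2 and Psme2b share most of their sequence, as given below.

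RNA was sequenced from whole peritoneum, the membrane lining the abdominal cavity, of wild-type C57BL/6J male mice aged 8 weeks, in 3 libraries per group. The EPS group, a model of encapsulating peritoneal sclerosis, received daily intraperitoneal injections of 4.25% peritoneal dialysis solution at 100 mL/kg and of 0.3 mL of an agent labelled SHS, and a weekly intraperitoneal injection of lipopolysaccharide at 4 mg/kg. The control group received saline in the same volume, and tissue was taken in week 3. The EPS mice received every agent, so the agents cannot be told apart, and the labels do not say whether each library is 1 animal or a pool. The p-values measure only the spread between these samples, which may be technical.

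Library totals ran from 15419232 to 17684229 counts. Values are CPM, read counts put on a common library size (per 1000000 counts) with TMM factors, a correction by the trend of most genes. The groups were compared over 13980 genes with the quasi-likelihood test of edgeR, and a gene is called higher or lower at a Benjamini-Hochberg adjusted p under 0.05. The TMM factors were 0.870, 0.856 and 0.877 for controls 1 to 3 and 0.938, 1.28 and 1.27 for EPS 1 to 3, so the factors themselves differed between groups. Markers of cell types differed as well: all 8 neutrophil, 7 T and NK cell, 8 B and plasma cell and 8 cell cycle marker genes were called higher in EPS, with 7 of 8 macrophage genes, and all 8 adipocyte and 8 endothelial genes were called lower. Fibroblast genes were split, with 5 of 8 higher and 1 lower, as were muscle genes, with 1 of 8 higher and 3 lower. Summed neutrophil markers ran from 4.23 to 5.09 CPM in controls and from 603 to 1972 CPM in EPS, with S100a8, Ngp, Mmp8 and Mpo at 0 in at least 1 control. Summed adipocyte markers ran from 17587 to 18394 CPM in controls and from 1463 to 2049 CPM in EPS. None of 8 mesothelial genes, which mark the lining cells of this membrane, was called by edgeR (0 at an unadjusted p under 0.05, 2 called by DESeq2 and 0 by limma-voom), and their summed level ran from 128 to 204 CPM in controls and from 43.2 to 363 CPM in EPS. In bulk tissue, fewer cells of a type and less RNA per cell cannot be told apart, and the part of cell makeup in any result below was not tested. None of 12 exocrine pancreas genes was called by edgeR, DESeq2 or limma-voom or had an unadjusted p under 0.05, yet they held 15.9% of the counts of EPS 1 and at most 0.374% of any other library.

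Of the 47 genes, 20 were called lower in EPS, 6 higher and 21 neither. Over all genes tested, 30.4% were called lower and 29.2% higher, so the 20 lower genes stand above the background share and the 6 higher genes below it. Of the lower calls, 19 fell on the core, base and lid. There 19 of 32 genes were called lower and none higher, with a median log2 fold change of -0.35 against -0.02 over all genes. The higher calls were Psme1, Psme2 and Psme3, which are 3 of the 4 activators, and Psme2b, Psmg4 and Psme3ip1. The groups did not overlap in 30 of the 47 genes: EPS lay below all controls in 22 and above them in 8, where 35.4% and 33.1% of all tested genes did so. All of the core, base and lid calls depended on scaling. With library totals in place of TMM factors, which moved the median of all genes from -0.02 to 0.41, none of the 47 genes was called lower and 8 were called higher, while 15.6% of all genes were called lower and 40.5% higher. Of the 32 core, base and lid genes, 2 then had an unadjusted p under 0.05, and with TMM 20 had one. DESeq2 and limma-voom called 16 and 20 of the 32 lower and none higher. Set against the median gene, the core, base and lid genes lay at -0.33 with TMM, RLE and upper-quartile factors and -0.34 with library totals. In each setting 26 of 32 genes lay under the median gene. These settings move all genes nearly alike, so the agreement follows from the subtraction and is no check on the scaling. Leaving out control 1, EPS 2 or control 3 reduced the 20 lower genes to 12, 13 and 13, and leaving out control 1 reduced the 6 higher genes to 3.

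**Figure D1:**
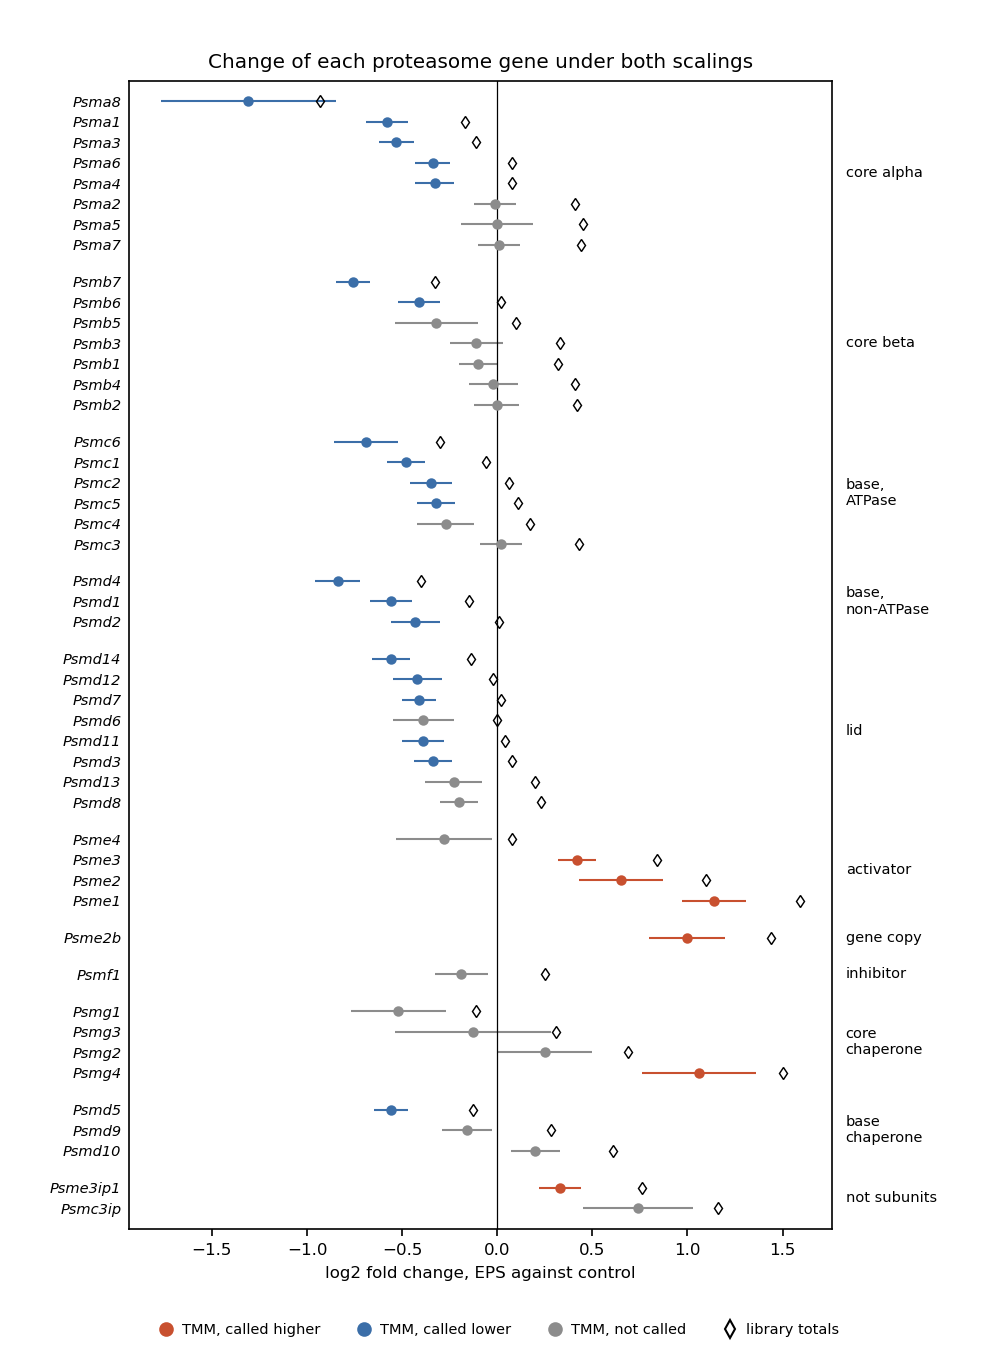
Log2 fold change of each of the 47 genes, EPS minus control (x axis), grouped by place in the proteasome. Filled points are TMM values with standard errors, coloured by call, and open diamonds are values with library totals. With TMM the core, base and lid genes lie at or below 0.02 and Psme1, Psme2 and Psme3 at 1.14, 0.65 and 0.42, and the diamonds lie to the right of every point.

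Of the 15 core genes, 7 were called lower and 8 were not called, with a median log2 fold change of -0.32. The alpha ring carried 5 of the calls. Psma1, a gate ring subunit, was at 91.2, 79.7 and 88.1 CPM in controls and 60.2, 51.1 and 61.6 CPM in EPS, in the order of their numbers as below. Every EPS library lay below every control, and the log2 fold change was -0.58 ± 0.11 (SE, edgeR adjusted p = 0.00233). Psma3 was at 70.1, 68.5 and 74.7 CPM in controls and 48.9, 46.8 and 51.7 CPM in EPS, again without overlap (-0.53 ± 0.09, edgeR adjusted p = 0.00134). Psma4 stood at 85.1, 81.9 and 88.3 CPM in controls and 73.4, 62.0 and 67.1 CPM in EPS (-0.33 ± 0.10), and Psma6, at 107 CPM per kb of transcript in controls, at 114, 109 and 112 CPM and 93.8, 87.3 and 83.9 CPM (-0.34 ± 0.09). Both are smaller steps than those of Psma1 and Psma3, yet their groups did not overlap either. Psma4 lost its call without EPS 2, control 1 or control 3 (edgeR adjusted p = 0.0524 to 0.0641) and Psma6 without control 1 (edgeR adjusted p = 0.0526).

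The other 3 widely expressed alpha genes did not follow. Psma2 was at 70.7, 58.6 and 64.5 CPM in controls and 64.8, 57.7 and 69.8 CPM in EPS, so that both groups covered the same range. Psma7 was at 95.3, 97.1 and 102 CPM in controls and 95.3, 88.3 and 113 CPM in EPS, with a log2 fold change of 0.01 ± 0.11 (edgeR adjusted p = 0.93), the highest of the core. Psma5 spread more within EPS, at 24.2, 30.9 and 39.5 CPM, around controls of 33.9, 27.8 and 33.3 CPM. Psma8, the alpha subunit known from the testis, had the lowest log2 fold change of all 47 genes, -1.31 ± 0.46 (edgeR adjusted p = 0.039), on few reads. It was at 1.36, 2.25 and 1.26 CPM in controls and 0.970, 0.517 and 0.495 CPM in EPS, and lost its call without EPS 2, EPS 3 or any single control (edgeR adjusted p = 0.0588 to 0.174).

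Of the 7 beta genes, 2 were called lower, a share near the 30.4% of all genes tested. These were Psmb6 and Psmb7, which encode catalytic subunits, while the other catalytic gene, Psmb5, was not called. Psmb7, the constitutive subunit with trypsin-like activity, was at 71.3, 66.3 and 67.3 CPM in controls and 39.8, 38.8 and 42.4 CPM in EPS. The groups were tight and far apart, with a log2 fold change of -0.76 ± 0.09 (edgeR adjusted p = 0.000195). Psmb6, with caspase-like activity, was at 68.8, 71.2 and 69.0 CPM in controls and 53.4, 46.2 and 58.2 CPM in EPS (-0.41 ± 0.11, edgeR adjusted p = 0.0119). Psmb5, with chymotrypsin-like activity, was at 11, 11.6 and 14.2 CPM in controls and 9.56, 7.42 and 12.4 CPM in EPS, where the groups overlapped and no call was made (-0.32 ± 0.22, edgeR adjusted p = 0.238). It was the core, base and lid gene of lowest level per length apart from Psma8, at 13.6 CPM per kb in controls and 10.9 CPM per kb in EPS. The structural subunits Psmb1, Psmb2, Psmb3 and Psmb4 had log2 fold changes between -0.11 and 0.00 and overlapping groups, and Psmb3 was called lower without EPS 3 (-0.28, edgeR adjusted p = 0.0281). Psmb2, the highest of the class by log2 fold change, was at 91.6, 94.4 and 105 CPM in controls and 97.4, 83.8 and 109 CPM in EPS. The median of the 7 beta genes was -0.11 and that of the 8 alpha genes -0.34, a difference that was not tested. Without EPS 3 the medians were -0.28 and -0.32, without EPS 1 the beta median was -0.02, and without EPS 2 it was -0.04. Psmb6 lost its call without EPS 1 (edgeR adjusted p = 0.0555), the core median was -0.16 without EPS 2, and exons of Psmb7 overlap those of Nek6 on the opposite strand.

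**Figure D2:**
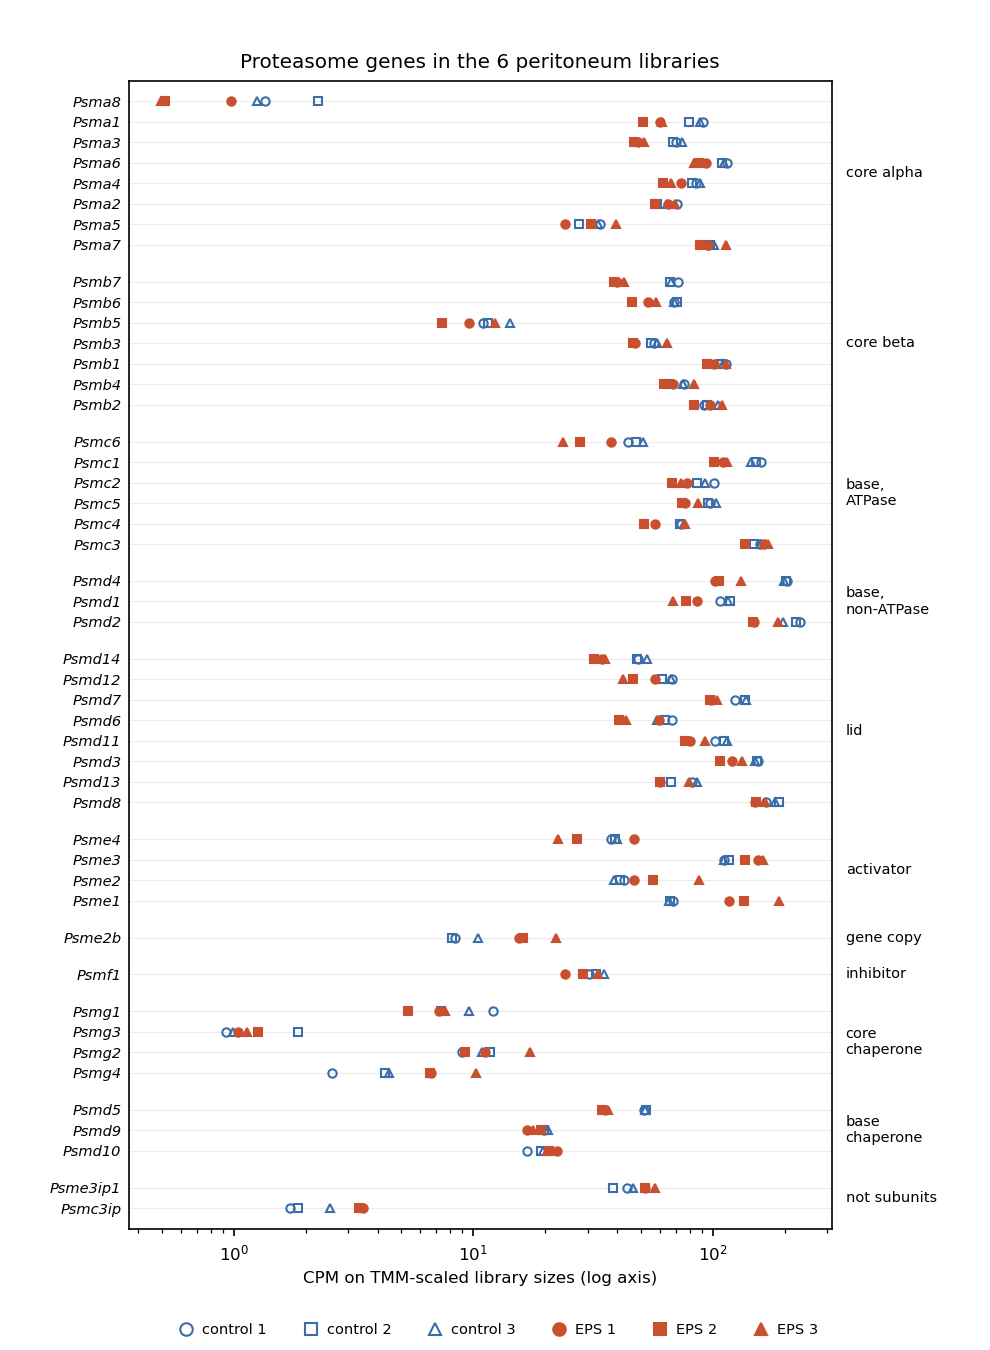
TMM-scaled CPM (log axis) of the 47 genes in each library, controls as open and EPS as filled symbols, ordered by place in the proteasome. The 3 EPS points of Psmb7 lie at 38.8 to 42.4 CPM under controls at 66.3 to 71.3 CPM, and those of Psmc3 cover the controls.

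Promoter windows are shown for Psmd4, the called core, base or lid gene with the largest difference apart from Psma8, and for Psmb6, the called catalytic gene whose window holds a match to the antioxidant response element (ARE), the motif bound by Nfe2l1, a transcription factor of proteasome genes. Each runs from 250 bases before to 50 bases after the RefSeq start on GRCm38.p6, 5′ to 3′ on the gene's strand, with motif matches in capitals. Psmd4 lies on the minus strand at chr3:95042565-95042864 and Psmb6 on the plus strand at chr11:70525107-70525406.
Psmd4: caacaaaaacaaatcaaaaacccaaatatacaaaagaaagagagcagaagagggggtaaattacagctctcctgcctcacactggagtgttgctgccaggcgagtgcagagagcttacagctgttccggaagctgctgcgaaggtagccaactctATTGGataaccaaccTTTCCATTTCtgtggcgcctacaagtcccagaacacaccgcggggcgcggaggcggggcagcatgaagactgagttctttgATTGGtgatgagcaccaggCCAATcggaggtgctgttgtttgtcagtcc
Psmb6: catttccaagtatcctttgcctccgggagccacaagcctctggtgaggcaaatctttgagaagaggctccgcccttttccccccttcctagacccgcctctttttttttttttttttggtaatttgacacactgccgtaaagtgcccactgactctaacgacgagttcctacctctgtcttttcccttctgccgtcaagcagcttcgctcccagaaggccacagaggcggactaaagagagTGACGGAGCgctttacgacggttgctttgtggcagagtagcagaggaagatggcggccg

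Windows were found for 39 of the 47 genes, among them 25 of the 32 core, base and lid genes, and were searched on both strands. The ARE, searched as TGACNNNGC, was in the windows of 4 of these 25 genes (16%, against 14% of all genes with a window). The box CCAAT was in 10 (40%, against 41.1%), the interferon-gamma activated site, searched as TTCNNNGAA, in 1 (4%, against 9.55%) and a motif like the interferon-stimulated response element, searched as GAAA, any 2 bases and GAAA, in 2 (8%, against 3.99%). Psmd4 holds 3 matches to CCAAT and 1 to the interferon-type motif, and Psmb6 1 match to the ARE. These are matches of letters and were not tested as binding sites.

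Of the 9 base genes, 7 were called lower and 2 were not called, with a median log2 fold change of -0.43. Psmd4, the ubiquitin receptor whose promoter is printed above, fell furthest. It was at 205, 203 and 199 CPM in controls and 102, 106 and 131 CPM in EPS, and the groups were far apart (-0.84 ± 0.12, edgeR adjusted p = 0.000422). In controls it had the highest level per length of the 31 core, base and lid genes without Psma8, 152 CPM per kb, and in EPS it stood at 84.8 CPM per kb, below Psmb2 at 113 CPM per kb. Psmd1 and Psmd2, the large scaffold subunits that bind substrate receptors, fell too. Psmd1 was at 107, 119 and 116 CPM in controls and 85.9, 77.0 and 68.3 CPM in EPS (-0.56 ± 0.11, edgeR adjusted p = 0.00301). Psmd2 was at 231, 223 and 196 CPM in controls and 149, 147 and 188 CPM in EPS, where EPS 3 came close to control 3 (-0.43 ± 0.13, edgeR adjusted p = 0.0203).

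Of the 6 ATPases, Psmc1, Psmc2, Psmc5 and Psmc6 were called lower and Psmc3 and Psmc4 were not. Psmc6 was at 44.4, 48.0 and 51.4 CPM in controls and 37.6, 27.9 and 23.7 CPM in EPS (-0.69 ± 0.17, edgeR adjusted p = 0.00879). Psmc1 was at 159, 151 and 144 CPM in controls and 110.0, 101 and 115 CPM in EPS (-0.48 ± 0.10, edgeR adjusted p = 0.00309). Both had groups that did not overlap. Psmc2 was at 101, 86.1 and 92.7 CPM in controls and 78.0, 67.5 and 73.7 CPM in EPS (-0.35 ± 0.11). Psmc5 was at 97.7, 95.4 and 104 CPM in controls and 76.6, 74.2 and 86.5 CPM in EPS (-0.32 ± 0.10). Psmc3 had the highest log2 fold change of the ring. It was at 157, 149 and 159 CPM in controls and 163, 137 and 171 CPM in EPS (0.02 ± 0.11, edgeR adjusted p = 0.909). Psmc4 was at 57.6, 51.7 and 76.2 CPM in EPS against 73.3 to 75.7 CPM in controls, so that EPS 3 lay just above the controls and the other EPS libraries below them, and it was called lower without EPS 3 (-0.45, edgeR adjusted p = 0.00435). Calls were lost for Psmd2 without EPS 1, EPS 2, control 1 or control 2 (edgeR adjusted p = 0.0551 to 0.11), for Psmc2 without EPS 2, control 1 or control 3 (0.0513 to 0.0843) and for Psmc5 without any single library but EPS 3 (0.0527 to 0.137). Exons of Psmc3 and Psmd1 overlap those of Slc39a13 and Htr2b on the opposite strand.

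Of the 8 lid genes, 5 were called lower and 3 were not called, with a median log2 fold change of -0.39. Psmd14, the metalloprotease that cuts the ubiquitin chain from the substrate, was at 48.8, 48.5 and 53.4 CPM in controls and 34.6, 31.8 and 35.6 CPM in EPS. The groups were tight and did not overlap (-0.56 ± 0.10, edgeR adjusted p = 0.00152). Psmd7, its inactive dimer partner, was at 123, 136 and 138 CPM in controls and 98.3, 97.1 and 104 CPM in EPS (-0.41 ± 0.09, edgeR adjusted p = 0.00576). The scaffold subunit Psmd11 was at 102, 111 and 115 CPM in controls and 80.7, 76.6 and 92.7 CPM in EPS (-0.39 ± 0.11, edgeR adjusted p = 0.0144). These lid genes had no EPS library at or above a control. Psmd12 was at 67.5, 61.2 and 67.1 CPM in controls and 57.4, 46.4 and 42.3 CPM in EPS (-0.42 ± 0.13). Psmd3 was at 154, 152 and 151 CPM in controls and 120.4, 107 and 133 CPM in EPS (-0.34 ± 0.10). Both were called with non-overlapping groups. Psmd8, the lid gene with the smallest change and the highest level per length (116 CPM per kb in controls and 101 CPM per kb in EPS), was at 167, 189 and 181 CPM in controls and 150.4, 152 and 166 CPM in EPS. Every EPS value lay below every control, by a narrow margin, and no call was made (-0.20 ± 0.10, edgeR adjusted p = 0.109). Psmd6 and Psmd13 were not called, at -0.39 and -0.23. Psmd6 was called lower without EPS 1 (-0.51, edgeR adjusted p = 0.00568) and Psmd13 without EPS 3 (-0.38, edgeR adjusted p = 0.0327). Calls were lost for Psmd3 without any single library but EPS 3 (edgeR adjusted p = 0.0538 to 0.10), for Psmd11 without EPS 1, control 2 or control 3 (0.0533 to 0.0816) and for Psmd12 without EPS 2, control 1 or control 3 (0.0576 to 0.0762).

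Subunits occur in fixed numbers in the assembled particle, and their mRNA levels can be set against each other within a library, where scaling between libraries plays no part. Each gene was therefore also read relative to the median of the 31 core, base and lid genes without Psma8 in its own library, a view chosen after values were seen and given with no test. Of all counts, these 31 genes held 0.264%, 0.254% and 0.267% in the controls, in order of number, against 0.225%, 0.282% and 0.331% in the EPS libraries, so their share of the library was lower than in controls in EPS 1 and higher in EPS 2 and EPS 3. With the 12 pancreas genes left out of the total, a setting chosen after values were seen, the share in EPS 1 was 0.267%, within the controls at 0.265%, 0.255% and 0.267%, and those in EPS 2 and EPS 3 were 0.282% and 0.331%. On this scale 19 of the 31 genes overlapped between groups, 6 lay lower in every EPS library (Psma1, Psma3, Psmb7, Psmc1, Psmd4 and Psmd14) and 6 lay higher (Psma2, Psma7, Psmb1, Psmb2, Psmb4 and Psmc3). Over all genes tested, 23.1% lay lower and 42.7% higher on the same scale, so both counts of 6 stand below the background share. The reference is the median of these same 31 genes, which centres them. The comparison therefore cannot show that they changed less than other genes. Psmd4 was 1.17, 1.31 and 1.17 log2 units above the median subunit in controls and 0.48, 0.76 and 0.78 in EPS. Psmb7 was at -0.36, -0.30 and -0.39 in controls and -0.88, -0.69 and -0.85 in EPS. Psmb7 therefore lay lower relative to its partners in EPS, but the other catalytic genes, Psmb5 and Psmb6, overlapped between groups. The structural Psmb4 went from -0.27, -0.32 and -0.24 to -0.11, 0.00 and 0.12, and the structural Psmb3 overlapped. Psmc3 was at 0.79, 0.87 and 0.85 in controls and 1.16, 1.13 and 1.16 in EPS, with every EPS library above every control. With the summed counts of the 31 genes as the reference, 7 lay lower, 7 higher and 17 overlapped.

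**Figure D3:**
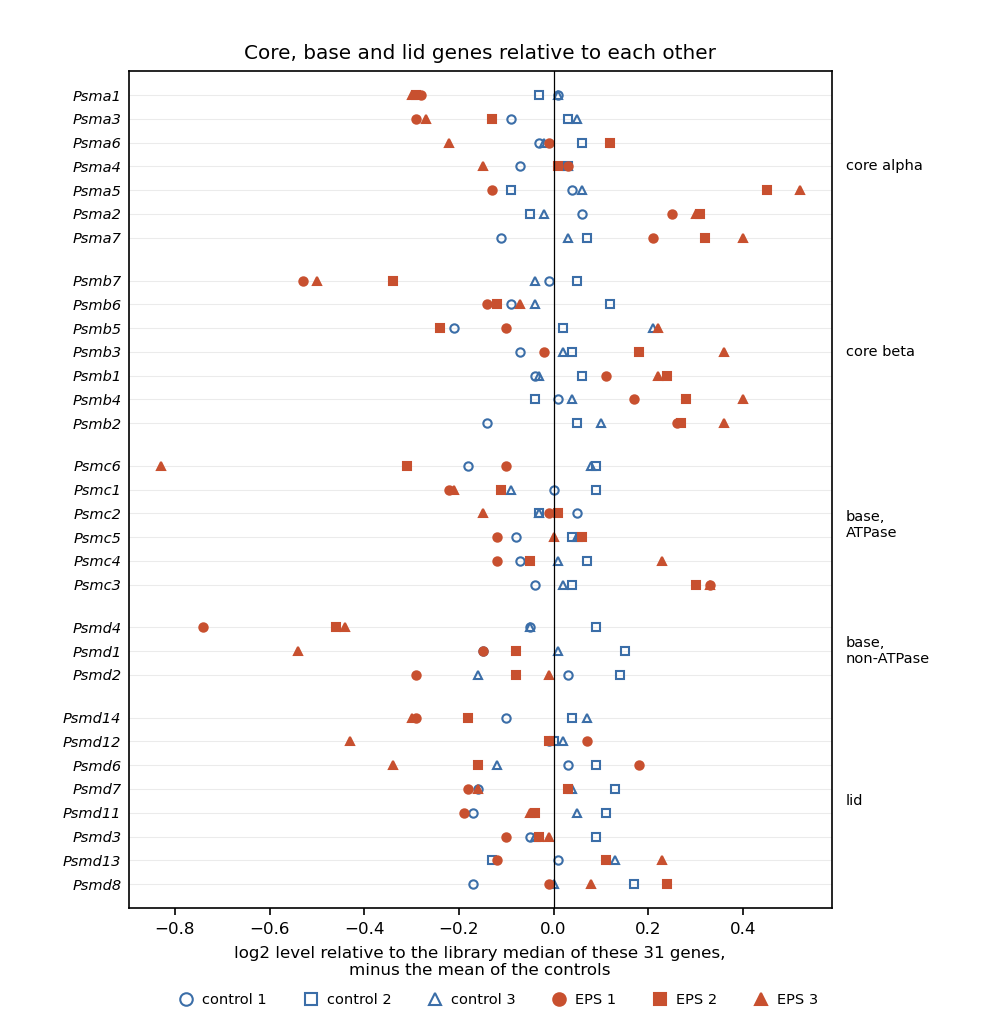
Log2 level of each core, base and lid gene relative to the median of the 31 genes of its library (Psma8 left out), minus the mean of the 3 controls (x axis), with 1 point per library. The EPS points of Psmd4, Psmb7 and Psmc3 lie apart from the controls, at mean differences of -0.55, -0.46 and 0.31.

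Of the 4 activators, Psme1, Psme2 and Psme3 were called higher and Psme4 was not called, with a median log2 fold change of 0.53. Psme1 and Psme2 encode the partners of the interferon-induced ring activator. Their windows are printed because they share a ring, and that of Psmg4, a core chaperone gene described below, because it holds the same motif as that of Psme1. This interferon-type motif is also in the windows of Psmb3 and Psmd9, which were not called, and of Psmd4, which was called lower. Psme1 lies on the plus strand at chr14:55578244-55578543, Psme2 on the minus strand at chr14:55591052-55591351 and Psmg4 on the plus strand at chr13:34162714-34163013, with capitals marking the interferon-type motif on either strand.
Psme1: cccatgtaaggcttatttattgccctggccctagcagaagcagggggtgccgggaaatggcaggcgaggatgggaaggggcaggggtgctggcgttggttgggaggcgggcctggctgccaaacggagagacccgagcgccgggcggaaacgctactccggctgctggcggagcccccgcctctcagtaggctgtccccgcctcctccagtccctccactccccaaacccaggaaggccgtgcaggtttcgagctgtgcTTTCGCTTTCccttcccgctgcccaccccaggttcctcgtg
Psme2: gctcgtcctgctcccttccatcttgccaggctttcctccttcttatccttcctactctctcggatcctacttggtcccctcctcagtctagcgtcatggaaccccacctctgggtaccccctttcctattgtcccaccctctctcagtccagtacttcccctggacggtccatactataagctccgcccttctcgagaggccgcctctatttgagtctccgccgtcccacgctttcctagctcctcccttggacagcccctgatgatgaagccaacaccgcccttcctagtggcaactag
Psmg4: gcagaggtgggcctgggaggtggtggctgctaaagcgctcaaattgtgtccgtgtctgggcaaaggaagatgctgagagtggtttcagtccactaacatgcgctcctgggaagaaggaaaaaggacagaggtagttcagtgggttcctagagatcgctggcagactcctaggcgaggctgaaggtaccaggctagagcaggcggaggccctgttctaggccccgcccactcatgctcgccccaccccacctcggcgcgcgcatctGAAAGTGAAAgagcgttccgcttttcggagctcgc

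The window of Psme2 held none of the 4 motifs, and that of Psme3, not printed, held 1 match to CCAAT. Psme1 was at 68.5, 66.1 and 65.7 CPM in controls and 117, 135 and 189.6 CPM in EPS. All EPS libraries lay far above the controls, with EPS 3 highest (1.14 ± 0.17, edgeR adjusted p = 0.000712). Psme2 was at 42.6, 41.0 and 38.7 CPM in controls and 47.0, 56.4 and 87.6 CPM in EPS, so that EPS 1 lay just above the controls (0.65 ± 0.22, edgeR adjusted p = 0.0351). Psme3, which encodes the nuclear ring activator, was at 112, 117 and 112 CPM in controls and 155, 136 and 163 CPM in EPS (0.42 ± 0.10, edgeR adjusted p = 0.00752). The calls of Psme1 and Psme3 held under each of the 15 other settings tried. That of Psme2 was lost without any single control (edgeR adjusted p = 0.0824 to 0.108), its log2 fold change was 0.34 without EPS 3, and the activator median was 0.35 without EPS 3. Exons of Psme1 overlap those of Emc9 on the opposite strand.

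Psme4, the large activator that binds acetylated histones, was at 37.8, 39.0 and 40.0 CPM in controls and 46.8, 27.0 and 22.6 CPM in EPS. EPS 1 lay above every control and EPS 2 and EPS 3 below every control, and no call was made (-0.28 ± 0.25, edgeR adjusted p = 0.368). Without EPS 1, the library with 15.9% of its counts on pancreas genes, Psme4 was called lower (-0.58, edgeR adjusted p = 0.00357). The part of the pancreas RNA in this value was not tested.

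Psme2b, the copy of Psme2, was called higher under every setting tried. It was at 8.43, 8.13 and 10.5 CPM in controls and 15.6, 16.2 and 22.2 CPM in EPS (1.00 ± 0.20, edgeR adjusted p = 0.00271). The transcripts of Psme2 and Psme2b match at 789 of 794 aligned positions (99.4%), and how reads that fit both were counted is not known here. Exons of Psme2b also overlap those of 9930111J21Rik1 on the same strand. The split of reads between these genes is therefore uncertain.

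Ratios between activators, in counts per kb of transcript, are free of scaling between libraries. Psme1 to Psme2 was 1.39, 1.40 and 1.47 in controls and 2.16, 2.07 and 1.87 in EPS, a 1.43-fold higher ratio. That ratio carries the uncertain split of reads between Psme2 and Psme2b. Psme1 to Psme3 was 1.47, 1.35 and 1.41 in controls and 1.81, 2.38 and 2.79 in EPS (1.62-fold). Psme1 to Psme4 was 10.6, 9.90 and 9.59 in controls and 14.6, 29.2 and 49.0 in EPS (2.75-fold). Psme3 to Psme4 was 7.21, 7.31 and 6.8 in controls and 8.09, 12.3 and 17.6 in EPS (1.70-fold). None of these groups overlapped, and each had an exact two-sided permutation p of 0.1, the smallest that 3 against 3 allows, and 0.1 after Benjamini-Hochberg adjustment over 7 ratios. The log2 difference of the Psme3 to Psme4 ratio was 0.76, and 0.49 without EPS 3.

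Of the 4 core chaperones, Psmg4 was called higher and Psmg1, Psmg2 and Psmg3 were not called. Psmg4, whose window is printed above, was at 2.57, 4.29 and 4.43 CPM in controls and 6.65, 6.62 and 10.3 CPM in EPS (1.06 ± 0.30, edgeR adjusted p = 0.0168). The groups did not overlap, and the call was lost without EPS 3 or control 1 (edgeR adjusted p = 0.050 and 0.0586). Psmg1, the core chaperone gene of lowest log2 fold change, was at 12.1, 7.33 and 9.59 CPM in controls and 7.21, 5.36 and 7.63 CPM in EPS (-0.52 ± 0.25, edgeR adjusted p = 0.10). Of the 3 base chaperones, Psmd5, which holds ATPases of the base before the cap is complete, was called lower. It was at 51.8, 52.8 and 52.3 CPM in controls and 35.6, 34.6 and 36.5 CPM in EPS, with little spread in either group (-0.56 ± 0.09, edgeR adjusted p = 0.000875). Psmd10, also known as gankyrin, had EPS values of 22.4, 20.8 and 20.4 CPM above controls of 16.8, 19.1 and 19.6 CPM and was not called (0.20 ± 0.13, edgeR adjusted p = 0.224). Psmd9 was not called either (-0.16 ± 0.13). The inhibitor Psmf1 was at 30.6, 32.6 and 35.1 CPM in controls and 24.3, 28.6 and 33.0 CPM in EPS, overlapping and not called (-0.19 ± 0.14, edgeR adjusted p = 0.273).

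The partner genes that encode no subunit lay higher in EPS. Psme3ip1 was at 43.8, 38.3 and 46.5 CPM in controls and 51.9, 52.3 and 57.4 CPM in EPS (0.33 ± 0.11, edgeR adjusted p = 0.0293), a call lost without EPS 3, control 1 or control 2 (edgeR adjusted p = 0.0629 to 0.128). Psmc3ip, known for its role in meiotic recombination, was at 1.71, 1.85 and 2.51 CPM in controls and 3.46, 3.34 and 3.37 CPM in EPS and was not called (0.74 ± 0.29, edgeR adjusted p = 0.0565). Of the marker lists above, those of neutrophils, T and NK cells, B and plasma cells, macrophages and the cell cycle moved the same way. Cell cycle markers summed to between 9.92 and 12.1 CPM in controls and between 182 and 224 CPM in EPS. The part of any of these lists in the values of the partner genes was not tested.

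The immunoproteasome genes, left out of the 47, were set against the catalytic subunits they replace. Psmb8, Psmb9 and Psmb10 were all called higher, with log2 fold changes of 2.79 ± 0.26, 2.18 ± 0.16 and 1.64 ± 0.13 (edgeR adjusted p = 4.64e-05, 1.73e-05 and 2.42e-05). In counts per kb, Psmb8 stood to Psmb5 at 0.186, 0.164 and 0.193 in controls and at 1.33, 1.73 and 1.67 in EPS, so the immunoproteasome mRNA was the less abundant of the pair in every control and the more abundant in every EPS library (8.66-fold). Psmb10 to Psmb7 was 0.394, 0.365 and 0.392 in controls and 1.94, 1.86 and 2.26 in EPS, with the same exchange of rank (5.25-fold). Psmb9 to Psmb6 was 0.132, 0.134 and 0.155 in controls and 0.696, 0.892 and 0.943 in EPS and stayed under 1 in each library (5.97-fold). The first ratio rests on low levels. Psmb8 was at 2.48 CPM per kb in controls and 17.1 CPM per kb in EPS. Psmb5 was at 13.6 and 10.9 CPM per kb, against core medians of 67.4 and 58.3 CPM per kb. Exons of Psmb9 overlap those of Tap1 on the opposite strand, and exons of Psmb8 those of the antisense gene Gm20496, so with no strand-marking step named their reads cannot be told apart. No group overlapped in any of the 3 ratios, each with the exact two-sided permutation p of 0.1 that is the smallest possible here and 0.1 after adjustment over the 7 ratios. Neutrophil, lymphocyte and macrophage markers went the same way between groups, as given above, and their part in these ratios was not tested.

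**Figure D4:**
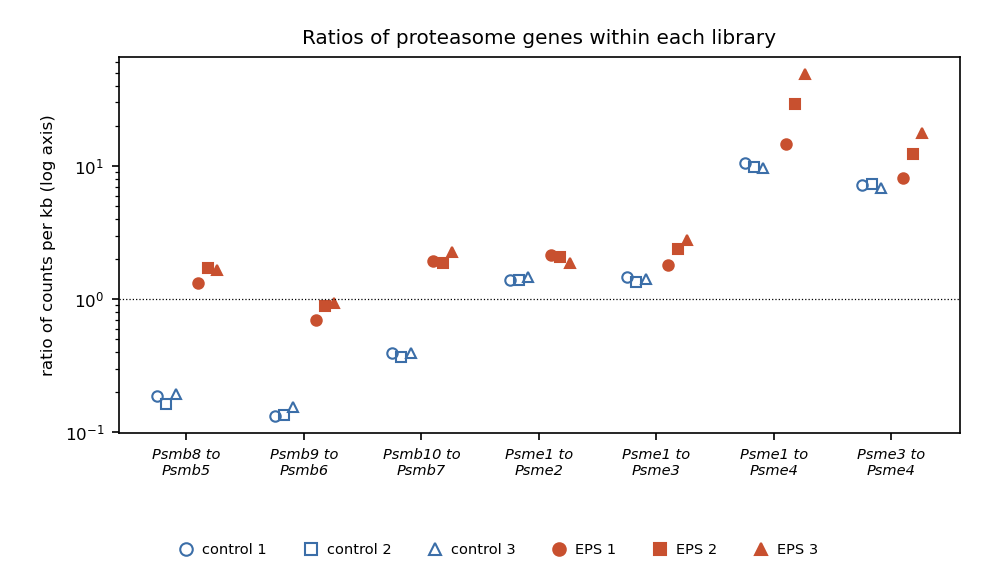
Ratio of counts per kb of transcript (log axis) in each library, controls as open and EPS as filled symbols, for the 3 immunoproteasome genes against the constitutive genes they replace and for 4 pairs of activator genes, with a dotted line at 1. Psmb8 to Psmb5 and Psmb10 to Psmb7 lie below 1 in the 3 controls and above 1 in the 3 EPS libraries.

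Other genes of the pathway were read from lists, each beside the background of 30.4% lower and 29.2% higher. Of 7 tested genes of other subunits, partners and assembly, Adrm1, a further ubiquitin receptor of the base, and Usp14, a deubiquitinase that binds the base, were called lower (-0.79 and -0.65) and none higher. Neither was called with library totals (-0.35 and -0.22, edgeR adjusted p = 0.176 and 0.341), where the median of the 7 genes was 0.21 in place of -0.22. Adrm1 was at 140.0, 141 and 126 CPM in controls and 73.4, 68.7 and 93.7 CPM in EPS, like its fellow receptor Psmd4 without overlap. Of 20 genes of ubiquitin and its shuttles, 13 were called lower and 1 higher, with a median log2 fold change of -0.38. The Vcp cofactor gene Ufd1 and the shuttle gene Ubqln1 fell by 0.92 and 0.73 on the log2 scale. Rps27a, which encodes ubiquitin fused to a ribosomal protein, rose by 1.03. Without control 1 or with controls 1 and 2 averaged, 8 of these 20 genes were called lower. With library totals 1 was called lower and 2 higher, with a median of 0.04, and Ufd1 kept its call.

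Of 12 genes known to regulate proteasome genes, 6 were called higher and 4 lower, with a median of 0.31. With library totals 7 were called higher and none lower, with a median of 0.73. Nfe2l1, the transcription factor that raises proteasome genes when proteasome activity is short, was at 694, 703 and 676 CPM in controls and 321, 346 and 368 CPM in EPS. The groups lay far apart (-1.0 ± 0.11, edgeR adjusted p = 0.000133), and its call too was lost with library totals (-0.57, edgeR adjusted p = 0.0510). Bach1, a repressor at related motifs, and Nfya, a subunit of the factor that binds CCAAT, were called higher (1.09 and 1.04), as was Stat3 (0.72). Of 9 genes of class I peptide supply, 8 were called higher and none lower, with a median of 0.93. Among them the peptide transporter gene Tap1 was at 45.4, 41.6 and 40.1 CPM in controls and 182, 247 and 279.6 CPM in EPS (2.48 ± 0.17, edgeR adjusted p = 1.05e-05). Nlrc5 and Irf1, which encode transcriptional activators of this pathway, had log2 fold changes of 1.86 and 1.25, and the class I gene H2-K1 1.13.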

How the data were processed

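Per the labels' protocols, polyadenylated RNA was copied with random primers and amplified by 15 cycles of PCR, with no step named that marks strand, so 10 of the 47 genes with exons on the opposite strand of another gene's exons carry reads that cannot be told apart. The authors deposited raw read counts per gene symbol, without normalization, on build mm10 per the submitters' processing notes. For the aligner, the counter and the treatment of reads with several matches, the sources used here give nothing.

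From these counts, filterByExpr kept 13980 genes, and EPS and control (3 libraries each) were compared with edgeR 4.0.16 in R 4.3.3 (robust quasi-likelihood test, TMM factors, no covariates, Benjamini-Hochberg adjustment, threshold 0.05). CPM is printed for each library, and log2 fold changes carry their standard error after ±. CPM per kb divides by the longest APPRIS principal transcript of GENCODE vM21 (46 of 47 genes matched). Promoter windows are RefSeq's, on GRCm38.p6. Ratios were compared by exact two-sided permutation over 20 splits. The scripts were tested on simulated data.

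The genes and lists were chosen with earlier results of these data known. Values in all 6 libraries are given for called genes and for those of highest and lowest log2 fold change in each class, and for others as the text needs, and genes outside the 47 come from the lists, at most 4 called genes of lowest adjusted p per list. A gene that meets this rule is not reported here. Alternatives were RLE and upper-quartile factors, library totals, no filter, DESeq2 1.42.0, limma-voom 3.58.1, a replicate block, each library left out, controls 1 and 2 averaged, and pancreas genes out of the scaling. Controls 1 and 2 were the closest pair of libraries, with a Pearson correlation of log2 CPM across genes of 0.99. Depth limits Psma8, Psmg3, Psmc3ip and Psmg4 most.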

Additional observations from a re-analysis of the deposited data

How the results depend on the processing

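Scaling mattered most. With library totals, the median of all genes moved from -0.02 to 0.41, 2182 genes were called lower in place of 4245, none of the 47 genes was called lower, and the class medians were 0.10 for the core, 0.01 for the base, 0.03 for the lid and 0.97 for the activators. Changes of sign there gave Psma2 0.41, Psma4 0.08, Psma5 0.45, Psma6 0.08, Psmb1 0.32, Psmb2 0.42, Psmb3 0.33, Psmb4 0.41, Psmb5 0.10, Psmb6 0.02, Psmc2 0.06, Psmc4 0.17, Psmc5 0.11, Psmd2 0.01, Psmd3 0.08, Psmd7 0.02, Psmd8 0.23, Psmd11 0.04, Psmd13 0.20, Psme4 0.08, Psmf1 0.25, Psmg3 0.31 and Psmd9 0.28 on the log2 scale, none of them called in that direction. DESeq2 and RLE factors each gave Psma2 0.04, Psma5 0.06, Psmb2 0.05 and Psmb4 0.04, upper-quartile factors gave 0.03, 0.04, 0.03 and 0.02, and averaging controls 1 and 2 gave Psma7 -0.0035. The shift with library totals follows from the scaling itself, which moves all genes nearly alike. The median of all genes was 0.04 with DESeq2 and with RLE factors and 0.02 with upper-quartile factors, against -0.02 with TMM. Sign changes outside library totals were in genes near 0, and their cause was not tested.

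With 1 library left out, 12 to 22 of the 47 genes were lower and 3 to 6 higher. The log2 fold change crossed 0 in Psma2 (-0.08 to 0.06), Psma5 (-0.20 to 0.23), Psma7 (-0.10 to 0.11), Psmb2 (-0.10 to 0.09), Psmb3 (-0.28 to 0.04), Psmb4 (-0.14 to 0.09), Psmc3 (-0.05 to 0.11), Psmg2 (-0.05 to 0.44) and Psmg3 (-0.31 to 0.26). Of the 26 called genes, 10 lost their call with library totals alone and 3 (Psme1, Psme3 and Psme2b) under none of the 15 alternatives. With controls 1 and 2 averaged, 14 genes were lower and 4 higher. Whether replicate numbers pair the samples cannot be settled with 3 libraries per group. Same-numbered deviations from the group means correlated at 0.201, -0.0952 and 0.236 across genes. For EPS 1 and EPS 3 these were the highest values, while EPS 2 correlated most with control 3 (0.186). With the replicate block, 3947 genes were higher and 4166 lower, and 6 and 20 of the 47. The 7 ratios kept their direction in every run. Counts of 10 to 34 reads limit Psma8. The reference by summed counts and the shares without pancreas genes were chosen after seeing the data.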
